A study of Mus musculus with 2 samples.

Results

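Most mature αβ T cells carry CD4 or CD8 as a coreceptor beside the T cell receptor, and the 5 genes described here are those that encode the coreceptors and 2 that fix the choice between them. Cd4 encodes CD4, which binds MHC class II, and Cd8a and Cd8b1 encode the chains of CD8, which binds MHC class I as a CD8αα homodimer or a CD8αβ heterodimer. The choice is made in the thymus by a pair of transcription factors that repress each other: ThPOK, the product of Zbtb7b, keeps cells in the CD4 lineage, and Runx3 silences Cd4 and Zbtb7b in the CD8 lineage. NK cells and many CD8αα T cells also use Runx3, while invariant NKT cells depend on ThPOK and are often CD4 positive. Plasmacytoid dendritic cells (pDC) are the cells outside the T lineage best known for Cd4 transcript in the mouse.

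The genes were chosen by name, and all 5 were present among the 13528 genes of the count table. The CD4 and CD8β antibodies, 2 of the 49 that were read in the same cells, were taken with them. Hepatic CD45+ cells of C57BL/6 mice aged 10 weeks had been captured as 2 libraries, each a pool of 2 genotypes. Cells named TG came from dnTGFβRII mice, which express a dominant negative human TGF-β receptor II from the mouse Cd4 promoter, and were pooled with cells of IFN-γ ARE-Del-/- mice. Cells named WT were wild type and were pooled with cells of P40-/-IL-2Ra-/- mice. The number of mice behind each library was not given in the sources used here.

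Each genotype was read in 1 library, so no difference was tested, and genotype cannot be told apart from library and pool. Values are therefore given side by side. Levels are UMIs (counted mRNA molecules) of a gene per 1000000 UMIs of a group of cells (CPM), with exact Poisson intervals, ratios are log2 of TG over WT with exact conditional intervals, and shares of cells carry Clopper-Pearson intervals. All intervals are 95% intervals in parentheses and cover counting error only, since cells are not replicates. The 4647 TG cells held 18498477 UMIs at a median of 3298 per cell, and the 7282 WT cells held 22216379 at a median of 2653.5. Because TG cells were deeper, the main shares are also given after each cell was thinned to 1000 UMIs, which left out 0 cells of either genotype, and shares without a thinned value carry this gap in depth.

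The main shares are read against those in mature B cells, which should lack these coreceptor genes. In mature B cells 5.15% of TG and 5.29% of WT cells held a Cd4 UMI, at median depths of 2923 and 2044.5 UMIs, and after thinning 1.87% and 2.21%. Cluster 17, with 29 TG and 155 WT cells of this class, does not serve as a background: a Cd4 UMI was found in 34.8% of its WT cells, and CD4 protein was past the gate defined below on 48.4% of them. Cluster 1, the bulk of the class, was therefore taken as the level of free RNA, with a Cd4 UMI in 3.79% (2.71–5.15) of 1028 TG and 1.88% (1.22–2.76) of 1329 WT cells at median depths of 2898 and 1978 UMIs, and in 1.46% (0.819–2.40) and 0.828% (0.414–1.48) after thinning. Mature B cells were also the main class with CD8β antibody signal but without the transcript: 89.9% of TG and 88.6% of WT cells passed the CD8β gate defined below, so the CD8β antibody was read only on T and NKT cells. The libraries shared 267 cell barcodes, and the named cells shared 36.

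The authors had named cells partly by the CD4 and CD8β antibodies and by Cd8a, so the level of a coreceptor in a class named for it is a description. The names were checked against markers. Trac, the constant segment of the TCRα chain, and Cd3e, a chain of the CD3 complex, stood above 800 CPM in both genotypes in the cells named CD4 T, CD8αβ T, CD8αα T and NKT. These genes do not set NKT cells apart from other T cells. The NKT marker Zbtb16 stood at 43.0 CPM in TG and 107 in WT cells named NKT, a log2 ratio of −1.31 (−1.68 to −0.97). In CD8αβ T cells it was 4.15 and 8.81 CPM. How alike the cells named NKT were between genotypes was not tested. The cells named NK did not match their name in TG. Cd3e stood at 1158 CPM (1115–1203) in the 759 TG cells named NK against 97.8 CPM (83.1–114) in the 615 WT cells. Cluster 8 was the part of this class nearest to NK cells in both genotypes, with Cd3e at 133 CPM in TG and 67.5 in WT and with Ncr1, which encodes the NK receptor NKp46, at 883 and 988 CPM. The main Cd4 results for the cells named NK are given with cluster 8 alone beside them. The cells named CD8αα T also differed in content: Trdc, the constant segment of the TCRδ chain of γδ T cells, was found in 42.3% of the 194 WT and 4.88% of the 410 TG cells, against 0.602% and 1.12% of mature B cells.

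The genes lie on 3 chromosomes of mm10. Cd4 (ENSMUSG00000023274, minus strand) is at chr6:124864692-124888221. Cd8a (ENSMUSG00000053977, plus strand, chr6:71373427-71379173) and Cd8b1 (ENSMUSG00000053044, plus strand, chr6:71322788-71337494) are neighbours on the same chromosome. Zbtb7b (ENSMUSG00000028042, minus strand, chr3:89377644-89394776) overlaps the antisense gene Gm15417, which held 153 UMIs against 2402 for Zbtb7b. Runx3 (ENSMUSG00000070691, plus strand, chr4:135120652-135177990) overlaps the antisense gene Gm16224, which held 13 UMIs against 10184 for Runx3. Over all named cells Cd4 held 7169 UMIs, Cd8a 8727 and Cd8b1 8068, so Zbtb7b was the least sampled of the 5 genes.

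RUNX proteins bind the letters ACCACA, or TGTGGT on the other strand, and both strands were searched in the 250 bases before annotated starts in RefSeq (GRCm38.p6). Promoter windows were held for 3 of the 5 genes, 5 windows in all. The upstream window of Runx3 held 2 matches and one window of Zbtb7b held 1, while the window of Cd8a and the other windows of Runx3 and Zbtb7b held 0. Of the 5 windows, the 2 with a match are shown, with the matches in capitals.

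Runx3, chr4:135120395-135120644, plus strand: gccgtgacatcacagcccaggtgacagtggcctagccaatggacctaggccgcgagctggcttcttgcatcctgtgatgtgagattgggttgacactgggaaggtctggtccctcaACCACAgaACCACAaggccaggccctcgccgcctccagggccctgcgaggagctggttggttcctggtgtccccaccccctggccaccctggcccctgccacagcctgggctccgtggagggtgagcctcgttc

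Zbtb7b, chr3:89387672-89387921, minus strand: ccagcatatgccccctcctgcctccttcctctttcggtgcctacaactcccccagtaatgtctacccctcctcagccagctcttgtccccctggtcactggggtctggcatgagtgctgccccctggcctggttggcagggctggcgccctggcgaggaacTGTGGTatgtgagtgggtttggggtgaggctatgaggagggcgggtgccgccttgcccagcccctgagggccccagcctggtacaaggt

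Of 32851 windows of this length, 14.0% held at least 1 match and 1.27% held 2 or more. A match is a run of letters and was not tested as a binding site.

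Cd4 transcript was seen in TG well beyond the cells past the CD4 gate defined below, which does not show that the other cells lacked surface CD4. In cells named CD4 T, Cd4 stood at 816 CPM (756–879) in 238 TG cells and 520 (488–553) in 734 WT cells, a log2 ratio of 0.65 (0.51–0.79). In cells named NKT it was 634 CPM (597–672) in TG and 162 (153–172) in WT, a log2 ratio of 1.97 (1.84–2.09). In CD8αβ T cells it was 186 CPM (175–198) and 92.0 CPM (81.6–103), a log2 ratio of 1.02 (0.83–1.21). The gap between genotypes was thus seen in helper, innate-like and cytotoxic T cells, but not in every cluster of them. In cluster 6 of the CD4 T cells Cd4 was 476 CPM in 58 TG and 461 CPM in 397 WT cells, a log2 ratio of 0.05 (−0.31 to 0.39), while in clusters 9 and 21 the ratios were 0.67 (0.47–0.86) and 0.56 (0.21–0.92). Cluster 6 was a smaller part of the TG class than of the WT class, so the class value sets unlike mixes of clusters side by side.

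The contrast was larger in the classes where WT cells were near the level of B cell cluster 1 (10.2 CPM, 6.86–14.7). In CD8αα T cells Cd4 stood at 113 CPM (95.8–133) in TG and 10.9 (4.0–23.7) in WT, a log2 ratio of 3.38 (2.22–4.84). Without the cells that held a Trdc UMI the ratio was 4.16 (2.28–7.22), from 142 and 2 UMIs in 390 and 112 cells. In the cells named NK it was 312 CPM (289–335) in TG and 17.4 (11.6–25.2) in WT, a log2 ratio of 4.16 (3.62–4.76). Cluster 8 alone gave 122 CPM in TG and 13.8 in WT, a log2 ratio of 3.1 (2.18–4.27). Over all mature B cells Cd4 was 25.3 CPM (20.2–31.3) in TG and 37.0 (31.0–43.9) in WT, but neither cluster 1 nor cluster 17 of the class was lower in TG. In cluster 1, which held 1028 of the 1068 TG and 1329 of the 1494 WT cells, it was 13.1 and 10.2 CPM with an interval that held 0 (−0.37 to 1.09), and in cluster 17 it was 243 and 143 CPM, a log2 ratio of 0.77 (0.22–1.29). The bulk of B cells thus gave no difference in Cd4 beyond counting error. Transcript of Cd79a, a gene of B cells, moved with genotype as well: at full depth a Cd79a UMI was found in 24.6% of TG and 5.74% of WT CD8αβ T cells and in 18.8% and 2.44% of the cells named NK. The Cd4 ratio in the cells named NK was 4.15 without cells that held 2 or more UMIs of B cell genes. Cells with 1 such UMI were kept, and the part of free RNA in the ratio was not tested.

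The order of the classes differed by genotype. In WT, CD4 T cells and pDC led Cd4 with overlapping intervals (520 and 494 CPM), followed by NKT and CD8αβ T cells, each apart from the next. The lower 7 WT classes with 50 or more cells, from mature B cells at 37.0 CPM to CD8αα T cells at 10.9 CPM, each overlapped their neighbour. In TG the order of the classes with 50 or more cells began with CD4 T, NKT, NK, CD8αβ T and CD8αα T, with each of these intervals apart from the next. The place of the cells named NK was not that of cluster 8, which at 122 CPM (94.97–154) lay below CD8αβ T cells and overlapped CD8αα T cells. The 46 TG pDC stood at 659 CPM (568–761) and the 219 WT pDC at 494 CPM (453–539), so the main Cd4 expressing class outside the T lineage differed less between genotypes than the NKT class did.

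**Figure D1:**
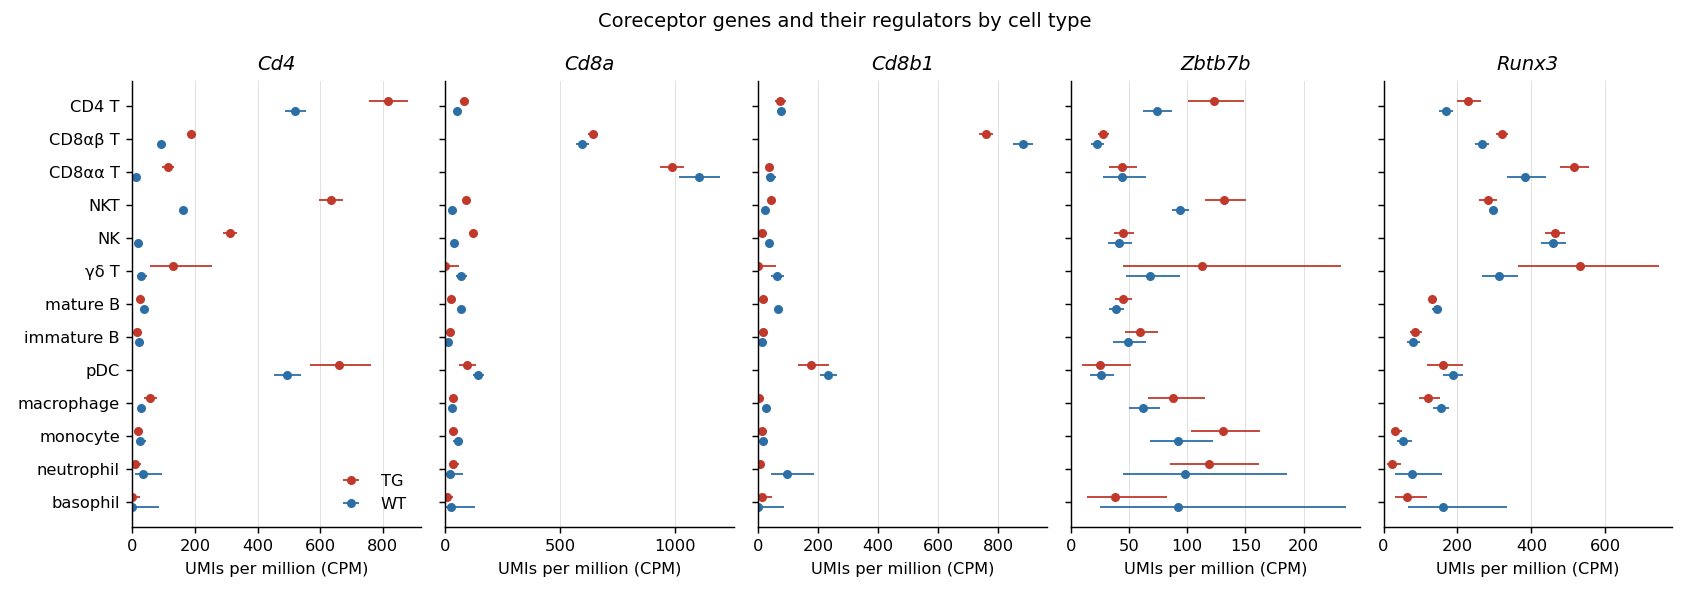
Levels of Cd4, Cd8a, Cd8b1, Zbtb7b and Runx3 in UMIs per 1000000 UMIs (x axes, linear) by the authors' cell type names (y axis) in TG (red) and WT (blue). Points are the summed level of 1 library and lines are 95% Poisson intervals for counting error only, and Cd4 is higher in TG with intervals apart in CD4 T, NKT, NK, CD8αβ T, CD8αα T and γδ T cells, pDC and macrophages.

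Shares of cells gave the same order of these named classes in TG at equal depth, again with cluster 8 below the CD8αβ T cells. Median depths in these classes ran from 2813 UMIs (NK) to 4557 (CD8αβ T) in TG and from 2437.5 (CD4 T) to 2996 (CD8αβ T) in WT. A Cd4 UMI was found in 82.4% of TG and 65.1% of WT CD4 T cells, and in 75.8% and 30.7% of NKT cells. Among CD8αα T cells the shares were 28.5% (24.2–33.2) and 2.58% (0.842–5.91), and among the cells named NK 44.1% (40.6–47.8) and 2.76% (1.62–4.39). Thinning to 1000 UMIs gave 51.3% and 40.9% of CD4 T cells, 42.4% and 13.8% of NKT cells, 14.7% and 7.08% of CD8αβ T cells, 11.2% and 1.03% of CD8αα T cells, and 24.0% and 0.976% of the cells named NK (8.50% and 0.697% in cluster 8). The WT shares of the last 2 classes, with intervals of 0.125–3.67 and 0.359–2.11, overlapped the thinned 0.828% of B cell cluster 1 and are read as background, while each TG share stood above the thinned 1.46% of that cluster.

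**Figure D2:**
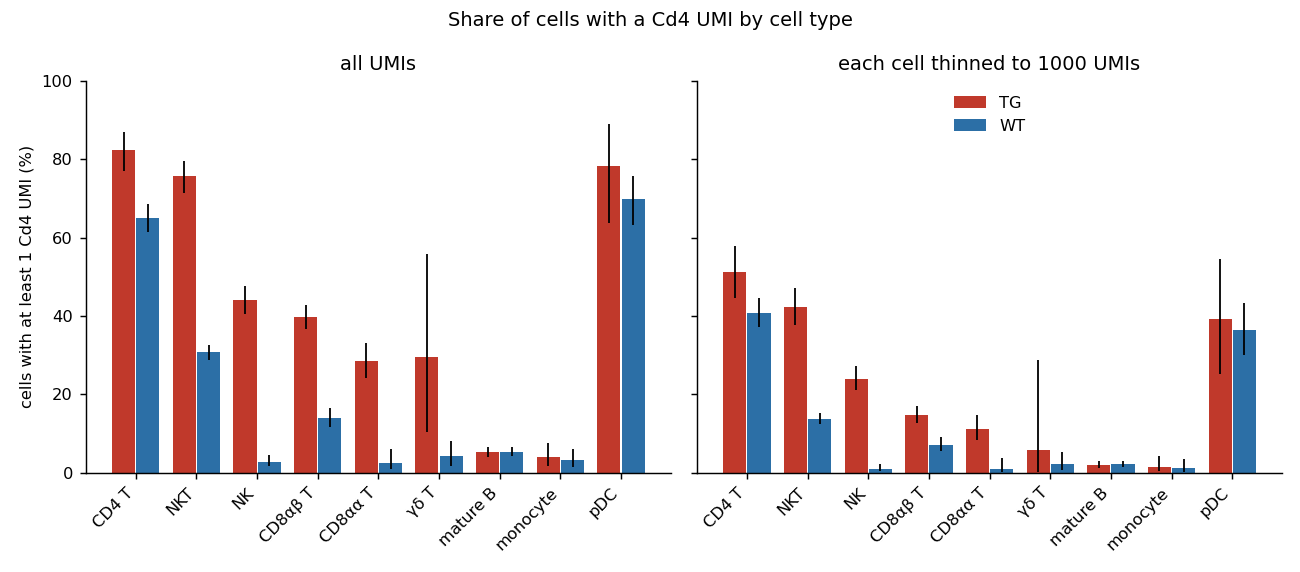
Share of cells with at least 1 Cd4 UMI (y axis, percent) by cell type in TG (red bars) and WT (blue bars), at full depth (left) and after thinning each cell to 1000 UMIs (right), with 95% Clopper-Pearson intervals. WT NK and CD8αα T cells sit below the bar of all mature B cells, which includes cluster 17 with its CD4 protein, and the TG classes of T, NKT and NK cells sit above it, except that the interval of the 17 TG γδ T cells is wide.

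Within CD8αβ T cells the contrast depended on the cluster. The clusters with the lowest CD4 antibody shares showed clear gaps: cluster 4 held 38.8 CPM of Cd4 in TG and 14.3 in WT, and cluster 13 held 74.3 and 16.5 CPM. In cluster 7, the proliferating cells of the class, Cd4 was high in both genotypes, at 249 and 165 CPM, and in cluster 12 it was 291 and 219 CPM with an interval that held 0 (−0.04 to 0.90). After thinning, 19.1% of TG and 19.7% of WT cells of cluster 7 held a Cd4 UMI. The intervals also held 0 in cluster 18, at 158 and 112 CPM (−0.48 to 1.62), and in cluster 23, at 128 and 161 CPM (−1.85 to 0.90). Clusters 7, 12, 18 and 23 held cells with CD4 protein in both genotypes, so the class was also read without such cells.

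Antibody counts had been deposited as centred log ratios on a natural log scale, a measure of each antibody against the mean of all antibodies on the cell. A cell was called positive past the point where a 2-component normal mixture, fitted to the T and NKT cells of 1 genotype, gave both components the same probability. The CD4 gates were 2.67 in TG and 1.34 in WT and the CD8β gates were 1.02 and 1.13. The lower CD4 peak lay at 1.45 in TG and 0.64 in WT, so the lower CD4 signal was not equal in the named cells of the genotypes. In B cell cluster 1 the median CD4 ratio was 0.79 in TG and 0.32 in WT, from 8 and 3 antibody counts. Levels of CD4 antibody are therefore compared within a genotype.

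By these gates few T and NKT cells carried both surface proteins. CD4 was past its gate in 32.4% of 2131 TG cells and 61.5% of 4171 WT cells, and CD8β in 32.0% and 14.5%. Both were past their gates in 13 TG cells, 0.610% (0.325–1.04), and in 87 WT cells, 2.09% (1.67–2.57). Neither was past its gate in 36.3% of TG and 26.1% of WT cells. The double positive shares moved with the gate: at the 99th percentile of mature B cells, cluster 17 included, they were 0.235% and 0.0240%, and at 10 or more counts of each antibody 25.1% and 7.67%. The percentile gate for CD8β lay at 2.31 in TG and 2.30 in WT, above the upper CD8β peaks of 1.99 and 1.91. At 10 counts the CD4 gate lay below the TG median of 15 counts in cluster 4, where 0.690% of cells passed the mixture gate. These shares are therefore not read as other estimates of double positive cells.

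**Figure D3:**
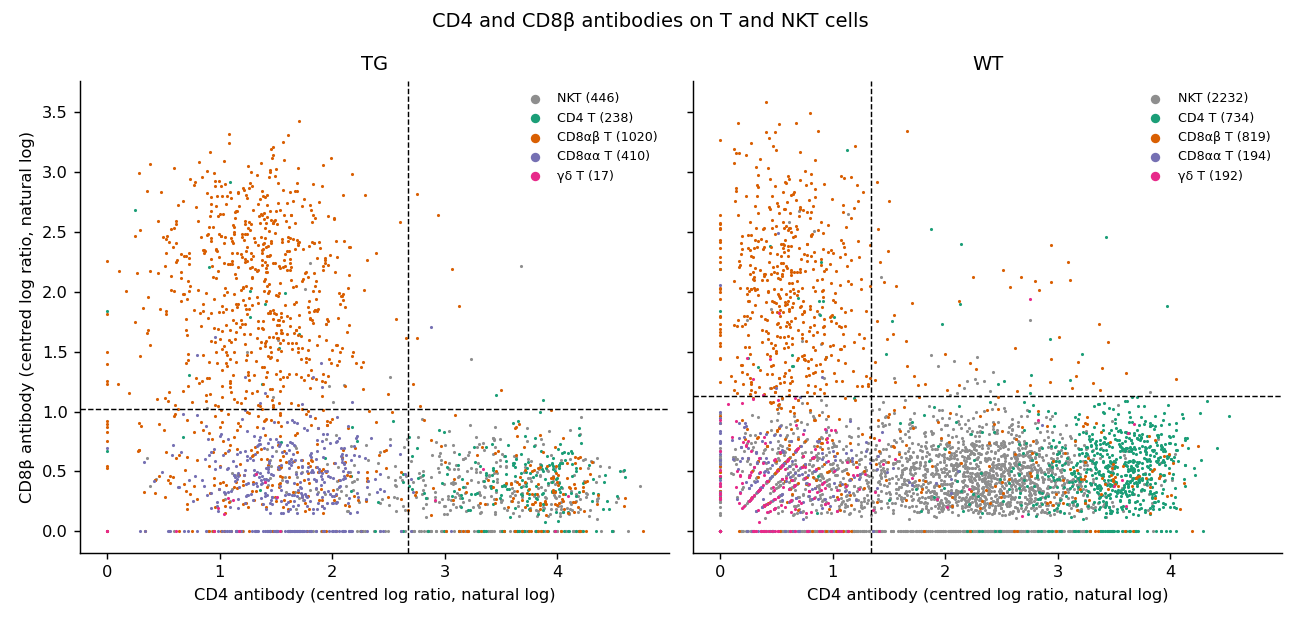
CD4 (x axis) and CD8β (y axis) antibody signal as centred log ratios on a natural log scale for every T and NKT cell of TG (left) and WT (right), coloured by the authors' cell type name, with the number of cells in brackets. Dashed lines are the gates, and few cells lie past both: 13 in TG and 87 in WT.

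The names and the proteins did not match in every cell. CD4 protein was past its gate on 87.8% of TG and 97.3% of WT cells named CD4 T and on 73.3% and 72.9% of cells named NKT. It was also past its gate on 14.2% (12.1–16.5) of TG and 23.3% (20.5–26.4) of WT cells named CD8αβ T. Shares past the CD4 gate rest on unequal gates, 2.67 in TG and 1.34 in WT, and are not compared between genotypes. In cluster 7 of that class the CD4 positive share was 25.7% in TG and 53.8% in WT, in cluster 18 3.48% and 59.5%, and in cluster 23 13.3% and 51.3%. The median CD4 ratios lay closer, at 1.47 in TG and 1.66 in WT in cluster 18 and 1.54 and 1.45 in cluster 23. In clusters 4 and 13 it was under 1% in TG (0.690% and 0.565%) and 6.89% and 7.25% in WT. CD8β was past its gate on 62.9% and 65.4% of cells named CD8αβ T and on 2.68% and 2.06% of cells named CD8αα T.

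When the cells past the CD4 gate of their own genotype were left out, the Cd4 contrast in CD8αβ T cells was larger, by a size that depended on the gate. The 634 TG cells with CD8β but not CD4 protein held 247 Cd4 UMIs, 77.2 CPM (67.9–87.5), and the 483 WT cells held 10 UMIs, 6.04 CPM (2.90–11.1). The log2 ratio was 3.68 (2.77–4.75). A Cd4 UMI was found in 29.2% (25.7–32.9) of these TG cells and 2.07% (0.997–3.77) of the WT cells, and in 7.10% and 0.621% after thinning. Because the gates were unequal, each was also used for both genotypes. Below the TG gate of 2.67 the CD8β positive cells, 634 in TG and 516 in WT, held 77.2 and 21.5 CPM, a ratio of 1.85 (1.35–2.37). Below the WT gate of 1.34 the numbers were 304 and 483 cells and 80.9 and 6.04 CPM, a ratio of 3.74 (2.81–4.84). TG was thus higher at either shared gate. At the gates of each genotype the WT share of 2.07% overlapped the 1.88% of B cell cluster 1, and the TG share stood above the 3.79% of that cluster.

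The other classes below the CD4 gate of their genotype gave the same direction. CD8αα T cells below the CD4 gate held 109 CPM in TG and 5.98 in WT (142 and 3 UMIs), a log2 ratio of 4.19 (2.61–6.48). NKT cells with neither protein held 241 and 23 CPM, a log2 ratio of 3.39 (2.83–3.97). In the NK cells of cluster 8 below the gate the counts were 66 and 3 UMIs, 118 CPM and 4.46 CPM, with a log2 ratio of 4.72 (3.11–7.03). With the TG gate for both genotypes the ratios were 3.31 (2.15–4.78) in CD8αα T cells, 1.07 (0.74–1.39) in NKT cells without CD8β and 4.79 (3.18–7.11) in cluster 8. With the WT gate they were 4.28 (2.64–6.62) in CD8αα T cells and 4.44 (2.78–6.78) in cluster 8, while 15 TG NKT cells with 1 Cd4 UMI were left and the interval held 0 (−5.55 to 2.35). In TG, Cd4 transcript was thus counted in CD8αβ T, CD8αα T and cluster 8 cells below either gate, and for NKT cells only the TG gate left enough cells. The gate bears on this reading, since the median CD4 ratio of TG CD8αα T cells was 1.62, below the TG gate but above the WT gate of 1.34, and whether low CD4 protein or antibody background sets that median was not tested.

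In CD8αβ T cells the CD4 protein was graded over Cd4 transcript in unlike steps. In WT CD8αβ T cells the median CD4 ratio went from 0.65 in cells with 0 Cd4 UMIs to 2.22, 3.09 and 3.49 in cells with 1, 2 and 3 or more, and the share past the gate went from 12.9% to 71.4%, 100% and 100%. In TG CD8αβ T cells the median was 1.37, 1.43, 1.81 and 3.76, and the share past the gate was 2.44%, 8.82%, 31.6% and 77.4%. From 0 to 1 UMI the median thus rose by a wide step within WT and by a small one within TG. The shares past the gate rest on unequal gates, since the WT median of 2.22 lay past the WT gate of 1.34 but not past the TG gate of 2.67, and are not compared between genotypes. In NKT cells the step was alike in both, from 2.43 to 3.04 in TG and from 1.82 to 2.43 in WT. These steps were not tested between genotypes. In TG CD8αα T cells the median CD4 ratio was 1.62, 1.65, 1.5 and 2.03 over the same classes, the last of which held 5 cells, and in WT it was 0.56 with 0 and 0.58 with 1 UMI, the latter in 4 cells. In the TG cells of cluster 8 it was 1.07, 1.17, 1.32 and 1.65, where 103, 35, 11 and 4 cells stood behind the values. The other TG cells named NK gave a wider rise, with 1.72, 1.88, 2.25 and 2.41 in cluster 3. In cluster 11 the medians were 1.23, 1.77, 2.09 and 2.26. These medians lay below the TG gate of 2.67, so cells below that gate are not shown to lack CD4 protein. CD4 T cells had high protein whether or not a transcript was caught, with medians from 3.35 to 3.81 in TG and from 3.43 to 3.54 in WT.

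Gene counts cannot tell Cd4 transcript of the endogenous locus from transcript of a construct driven by the Cd4 promoter, and the part of the transgene in these counts was not tested. Tgfbr2, the mouse gene for the receptor of which the transgene is a human mutant form, was higher in TG in several of the classes in which Cd4 was. In CD8αβ T cells Tgfbr2 stood at 296 CPM in TG and 153 in WT, in the cells named NK at 362 and 143 CPM, and in NKT cells at 411 and 148 CPM. In mature B cells it was 218 and 232 CPM. The genes did not move together everywhere: in cluster 4 of the CD8αβ T cells, where Cd4 was higher in TG by 1.44 (0.49–2.45), Tgfbr2 gave −0.02 (−0.35 to 0.31), and in pDC Tgfbr2 gave 1.00 (0.50–1.48) where Cd4 gave 0.42. Among TG cells without CD4 protein, Tgfbr2 was 262 CPM (243–282) in CD8αβ T cells without a Cd4 UMI and 328 CPM (301–356) in those with one, but 347 and 327 CPM in CD8αα T cells and 382 and 379 CPM in cluster 8. TG NKT cells gave 343 and 371 CPM and the cells named NK 355 and 360 CPM. TG mature B cells gave 211 CPM (195–228) and 327 CPM (249–421), a set that includes cells of cluster 17, where Cd4 was more frequent and Tgfbr2 stood at 364 CPM against 211 in cluster 1. Cells with and without a Cd4 UMI thus had intervals apart among CD8αβ T and mature B cells and not in the other 4 sets. The CD8αβ T set mixes clusters as well. Over all TG cells of cluster 4, Tgfbr2 stood at 181 CPM and 16.6% held a Cd4 UMI, against 410 CPM and 39.4% in cluster 12. Among TG CD8αβ T cells those with a Cd4 UMI were also deeper, at a median of 5592 against 4170.5 UMIs. The part of cluster mix and depth in the gap was not tested.

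Summed over the classes named for CD8, the 2 CD8 genes differed much less between genotypes than Cd4 did. These classes were named partly by Cd8a and CD8β, so their CD8 levels were in part set by the naming. The contrast with Cd4 is therefore a description, and it did not hold in every cluster. In cluster 18 Cd8a was 2166 CPM in TG and 1010 in WT, a log2 ratio of 1.10 (0.79–1.43), where Cd4 gave 0.49 (−0.48 to 1.62). In cluster 12 Cd8b1 gave −0.62 where Cd4 gave 0.41. In CD8αα T cells Cd8a was 984 CPM (931–1039) in TG and 1104 (1018–1195) in WT. CD8αβ T cells held 640 CPM (619–662) of Cd8a in TG and 595 (568–623) in WT, a log2 ratio of 0.11 (0.02–0.19). Cd8b1 in those cells was 759 CPM (735–783) in TG and 882 (849–916) in WT, a log2 ratio of −0.22 (−0.29 to −0.15). The Cd8b1 gap was not even over the clusters. Without cluster 7, which held 319 of 1020 TG and 132 of 819 WT cells, the ratio was −0.04, yet inside cluster 7 it was −0.10 (−0.27 to 0.07), at 413 and 443 CPM. It was −0.62 (−0.81 to −0.42) in cluster 12, −0.16 (−0.29 to −0.03) in cluster 4 and 0.60 (0.42–0.78) in cluster 13, and −0.31 over the class without the cells past the CD4 gate. The ratio of Cd8b1 to Cd8a UMIs, on a log2 scale, was 0.25 (0.18–0.31) in TG and 0.57 (0.48–0.65) in WT CD8αβ T cells, and −4.79 in CD8αα T cells of both genotypes.

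In NKT cells Cd8a was 90.6 CPM (77.1–106) in TG and 29.7 (25.7–34.1) in WT, and Cd8b1 was 43.6 and 24.2 CPM, so both were higher in TG over the class, by 1.61 (1.30–1.92) and 0.85 (0.44–1.25) on the log2 scale. The values were uneven over the class: 12 of the 446 TG cells were past the CD8β gate only, and they held 71 of the 160 Cd8a and 46 of the 77 Cd8b1 UMIs. In NKT cells with CD4 protein only, 325 in TG and 1610 in WT, the ratios were −0.30 (−1.06 to 0.39) and −0.19 (−0.93 to 0.49). In those with neither protein, 107 and 593 cells, Cd8a was 144 and 45.9 CPM, a ratio of 1.65 (1.13–2.17), and Cd8b1 gave −1.16 (−3.52 to 0.54) from 3 and 28 UMIs.

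Cd8a without Cd8b1 transcript was the pattern of the class named CD8αα. Of the cells with a Cd8a UMI, 94.3% (90.8–96.8) of TG and 91.5% (85.3–95.7) of WT CD8αα T cells held no Cd8b1 UMI, against 13.6% and 11.3% of CD8αβ T cells. A lone Cd8a UMI of free RNA gives a high share as well, with 97.6% of 41 TG and 90.7% of 54 WT cells in B cell cluster 1, so the share is read only where Cd8a stood well above that cluster, at 13.7 and 20.5 CPM. In the cells named NK Cd8a was 119 CPM (105–134) in TG and 38.6 (29.6–49.5) in WT, a log2 ratio of 1.63 (1.22–2.05), while Cd8b1 was 14.5 CPM (9.95–20.3) and 37.4 CPM (28.5–48.1). A Cd8a UMI was found in 17.9% of TG cells named NK, of which 131 of 136 held no Cd8b1 UMI. In WT it was found in 5.53%, against 4.06% (3.07–5.27) in B cell cluster 1, and after thinning in 2.93% and 2.18%. These WT shares are not read as apart. The TG share in that cluster was 3.99%. The WT level of 38.6 CPM lay above the 20.5 CPM of that cluster, so the WT level is not read as background alone. In cluster 18 of the CD8αβ T cells the log2 ratio of Cd8b1 to Cd8a was −0.96 (−1.13 to −0.80) in TG and −0.23 (−0.68 to 0.23) in WT. The TG excess of Cd8a over Cd8b1 in the cells named NK lay mainly in clusters 3 and 11, the clusters with Cd3e, which held 85 and 153 of the 272 Cd8a UMIs.

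Cd8b1 transcript and CD8β protein were graded alike in both genotypes. The median CD8β ratio in TG CD8αβ T cells was 0.42, 1.39, 1.68 and 2.11 in cells with 0, 1, 2 and 3 or more Cd8b1 UMIs. In WT it was 0.55, 1.38, 1.78 and 1.99. The step from 0 to 1 UMI, which for Cd4 was 1.37 to 1.43 in TG, was thus wide in both genotypes for Cd8b1.

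Cd4 and Cd8a transcripts met in a single cell more often in TG. Both genes were found in 342 of 2131 TG T and NKT cells, 16.0% (14.5–17.7), and in 104 of 4171 WT cells, 2.49% (2.04–3.01). Mature B cells gave 0.468% and 0.535%. After thinning the shares were 3.43% (2.69–4.29) in TG and 0.527% (0.331–0.797) in WT, against 0.187% and 0.134% of mature B cells. In B cell cluster 1 the thinned shares were 0.0973% (0.00246–0.541) in TG and 0% (0–0.277) in WT, below the T and NKT shares in both genotypes. In both genotypes the genes met less often than the product of their separate shares, which was 24.7% in TG and 6.43% in WT. The set mixes classes named for CD4 with classes named for CD8, which by itself lowers the shared part. The gap is therefore not read as avoidance of the 2 genes in single cells.

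Cell types differed in where co-detection lay. In CD8αβ T cells it was 22.5% (20–25.2) in TG and 4.27% (2.99–5.89) in WT, in CD8αα T cells 17.6% and 2.58%, and in CD4 T cells 7.98% (4.87–12.2) and 4.63% (3.23–6.41). After thinning these shares were 3.82% (2.73–5.19) and 0.855% (0.344–1.75), 5.61% (3.59–8.30) and 0.515% (0.01305–2.84), and 2.52% (0.931–5.41) and 1.23% (0.562–2.31), so the genotypes stayed apart in the CD8αβ and CD8αα T cells and overlapped in the CD4 T cells. Cd8a and Cd8b1, the pair that forms a heterodimer, met more often than their separate shares give, with 61.7% of TG CD8αβ T cells against a product of 47.9%, and 58.7% of WT cells against 46.5%. In B cell cluster 1 this pair met in 0.0973% and 0.376% of cells. In TG 16.0% of T and NKT cells held Cd4 and Cd8a transcripts while 0.610% were past both antibody gates. The protein share of 25.1% at 10 or more counts of each antibody has the limit given above. How many cells carried low levels of both proteins was not tested, so the gap between transcript and protein rests on the gate.

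Zbtb7b, which encodes the CD4 lineage factor ThPOK, followed surface CD4 in both genotypes. Over T and NKT cells it stood at 116 CPM (104–129) in 677 TG cells with CD4 protein only and 20.1 CPM (15.6–25.5) in 668 with CD8β only. In WT it was 84.6 CPM (78.1–91.5) in 2478 cells and 6.15 CPM (3.07–11) in 519. The log2 ratio of CD4 over CD8β cells was 2.52 (2.14–2.93) in TG and 3.78 (2.93–4.79) in WT. The gate used proteins alone, so these transcript levels are separate from it.

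Between genotypes Zbtb7b was higher in TG in some sets on both sides of the gate. Among CD8αβ T cells with CD8β but not CD4 protein it was 18.5 CPM (14.0–23.8) in TG and 4.84 (2.09–9.53) in WT, from 59 and 8 UMIs, a log2 ratio of 1.93 (0.86–3.21). It was 1.26 (0.40–2.21) with the TG CD4 gate for both genotypes and 2.16 (1.01–3.49) with the WT gate. A Zbtb7b UMI was found in 8.20% and 1.66% of these cells, and in 2.52% and 0.414% after thinning. In mature B cells Zbtb7b stood at 44.9 and 38.7 CPM and in 12.1% and 7.70% of cells, above the values in both genotypes. In cells named CD4 T it was 123 CPM (101–149) in TG and 74.0 (62.4–87.1) in WT, a log2 ratio of 0.73 (0.36–1.11), and 0.74 (0.35–1.12) in those with CD4 protein only. Cluster 6 of that class gave 34.4 and 76.1 CPM, from 6 and 76 UMIs, with an interval that held 0 (−2.64 to 0.04). The cells named CD8αβ T with CD4 protein only gave 64.5 and 61.5 CPM, so the TG excess was not seen in those cells. Over all CD8αβ T cells the interval held 0, at 28.1 CPM (23.8–33.0) and 22.2 CPM (17.2–28.1). That class also holds cells past the CD4 gates, which were unequal, so their shares are not compared between genotypes.

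Zbtb7b was not confined to T cells. In TG, NKT cells (132 CPM), monocytes (130 CPM), CD4 T cells (123 CPM) and neutrophils (119 CPM) led with overlapping intervals, and among classes with 50 or more cells CD8αβ T cells were lowest and apart from the next. The 46 TG pDC gave 24.9 CPM (10.0–51.4). In WT, NKT cells (94.2 CPM), monocytes (91.8 CPM) and CD4 T cells (74.0 CPM) each overlapped their neighbour, and CD8αβ T cells were again lowest at 22.2 CPM, where they overlapped pDC at 25.7 CPM. In the T lineage Zbtb7b thus separated CD4 T and NKT cells from CD8αβ T cells, with CD8αα T cells in between at 43.8 and 43.6 CPM.

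Runx3, which silences Cd4 in CD8 T cells, did not follow the surface coreceptor in the same way. It stood at 281 CPM (262–301) in TG cells with CD4 only and 308 CPM (289–327) in those with CD8β only. The WT values were 257 CPM (246–269) and 244 CPM (222–268). The log2 ratio of CD4 over CD8β cells was −0.13 (−0.27 to 0.00) in TG and 0.07 (−0.08 to 0.23) in WT. Without NKT cells, which are CD4 positive and held 282 and 297 CPM of Runx3, the ratios were −0.11 (−0.27 to 0.05) in TG and −0.28 (−0.47 to −0.09) in WT. Runx3 was thus higher with CD8β beyond counting error in WT once NKT cells were set aside, and in none of the other 3 values. The TG call over T and NKT cells was at its limit: the interval left out 0 without doublets (−0.27 to −0.0016), with totals that left out ribosomal protein and mitochondrial genes (−0.37 to −0.10) and after thinning (−0.72 to −0.15), and the sign turned at the other 2 gates, to 0.11 and 0.23. Those gates have the limits given with the antibody shares, with a CD8β percentile gate of 2.31 above the upper TG peak of 1.99. The turn is therefore not read as a result about Runx3. Among the cells named CD8αβ T outside cluster 7, those with CD4 protein held more Runx3 than those with CD8β, by 0.89 (0.56–1.2) in TG and 0.73 (0.38–1.06) in WT on the log2 scale.

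**Figure D4:**
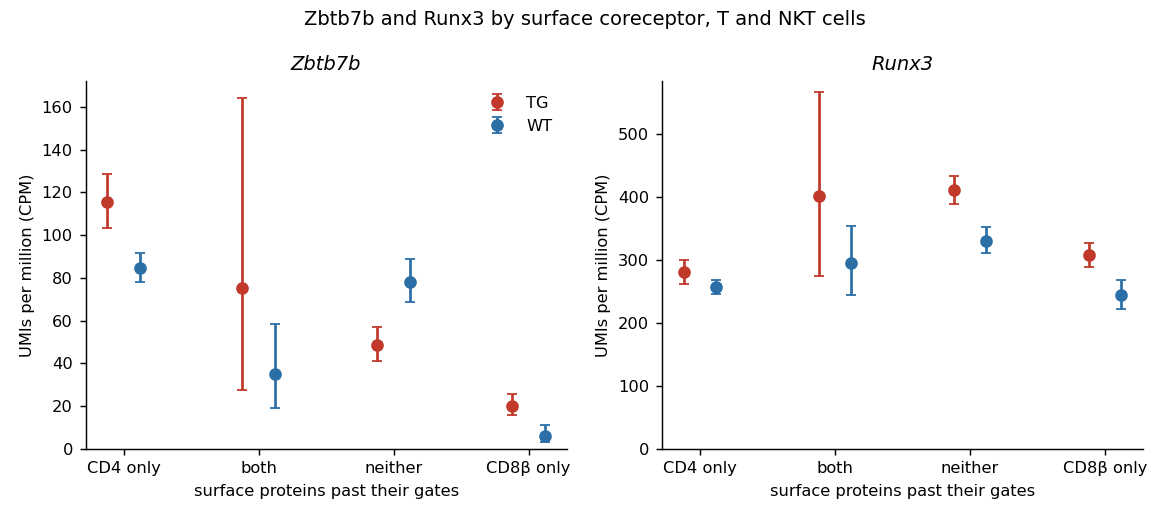
Zbtb7b (left) and Runx3 (right) in UMIs per 1000000 UMIs (y axes, from 0) in T and NKT cells grouped by the surface proteins past their gates (x axis), in TG (red) and WT (blue), with 95% Poisson intervals for counting error only. Zbtb7b is lower in CD8β only than in CD4 only cells in both genotypes, while Runx3 stays between 244 and 411 CPM in all groups.

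Runx3 was high where no coreceptor protein passed its gate. T and NKT cells with neither protein held 411 CPM (389–435) in TG and 331 (311–352) in WT. Among classes with 50 or more cells CD8αα T cells and the cells named NK led in both genotypes, with 516 CPM (478–556) and 463 CPM (436–492) in TG and 384 CPM (334–439) and 458 (426–493) in WT. The 17 TG γδ T cells gave 530 CPM (365–745). CD8αα T cells were higher in TG, by 0.43 (0.20–0.66) on the log2 scale, as were CD8αβ T cells, by 0.27 (0.15–0.39), and CD4 T cells, by 0.45 (0.18–0.71). Inside the CD4 T clusters each interval held 0, at 0.52 (−0.18 to 1.16) in cluster 6 and 0.22 (−0.11 to 0.55) in cluster 9. Cluster 21 gave −0.39 (−1.06 to 0.27). The CD4 T class value thus sets unlike mixes of clusters side by side. In NKT cells and in the cells named NK the intervals held 0. Within CD8αβ T cells Runx3 varied by cluster, with ratios of 0.63 (0.39–0.87) in cluster 7, 0.63 (0.27–1.01) in cluster 12, −0.16 (−0.49 to 0.17) in cluster 4 and −0.34 (−0.66 to −0.01) in cluster 13. Cd4 was higher in TG in clusters 7, 4 and 13. Some of these clusters differed in content between genotypes. In cluster 13 CD8β was past its gate on 87.6% of TG and 57.2% of WT cells, and cluster 7 also held cells with CD4 protein. Whether Runx3 and Cd4 levels were related between genotypes was not tested.

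Zbtb7b and Runx3 transcripts were not exclusive in single cells. Both were found in 12.9% (11.5–14.4) of TG and 8.34% (7.52–9.22) of WT T and NKT cells, near the products of their separate shares, 12.7% and 8.40%. After thinning both were found in 2.25% and 1.51%. In CD4 T cells they met in 17.2% (12.7–22.6) of TG and 5.18% (3.69–7.04) of WT cells, against products of 13.7% and 4.83%, and mature B cells gave 3.75% and 1.87%. After thinning the CD4 T shares were 3.78% (1.74–7.06) and 1.23% (0.562–2.31), with overlapping intervals.

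Cluster 7, which the authors named CD8αβ T and in which 91.8% of TG and 84.8% of WT cells held a UMI of the proliferation gene Mki67, split by protein into cells of both lineages. In TG 78 of its cells held CD4 only, 109 CD8β only and 128 neither, and in WT the numbers were 65, 36 and 25. Cells with CD4 only held Cd4 at 641 CPM in TG and 304 in WT and Zbtb7b at 53.3 CPM (36.7–74.8) and 56.4 CPM (36.9–82.7). Those with CD8β only held Zbtb7b at 12.4 CPM (6.17–22.1) and 15.2 CPM (4.14–38.9). Their Cd4 level was 75.3 CPM (58.4–95.6) in TG, while the 36 WT cells held 0 Cd4 UMIs, which allows a level of up to 11.4 CPM at 3 counts. Cd8b1 was 1073 and 1289 CPM in the CD8β only cells and 9.69 and 30.4 CPM in the CD4 only cells. In cluster 7 the name CD8αβ T therefore held for the cells with CD8β, and the CD4 positive ones carried CD4 lineage transcripts.

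Beyond the 5 genes, a list of 45 genes of the coreceptor network (thymic regulators, Runx partners, chromatin factors, receptor signalling genes and helper or cytotoxic targets) was read in the same cells. A gene was called when its level differed at least 2-fold with an interval that left out 0, among genes with 10 or more UMIs over both profiles. In CD4 T cells 3 of 45 genes were higher and 3 lower in TG, where 5.02% of all 9663 genes were called higher and 2.26% lower, and the median log2 ratio was −0.07 for the list and 0.09 for all genes. Among CD8αβ T cells 3 of 44 were higher and 6 lower, where 3.86% of 11206 genes were higher and 2.93% lower, with medians of −0.05 and 0.03. As shares of the list these were 6.67% each way in CD4 T cells and 6.82% higher and 13.6% lower in CD8αβ T cells. In NKT cells 1 of 43 was called each way, Crtam higher and Zbtb16 lower, where 3.91% of 10962 genes were higher and 1.46% lower. Of the 5 coreceptor genes, Cd4 was called in CD8αβ T cells and Cd4 and Cd8a in NKT cells, all higher in TG.

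The classes held their clusters in unlike shares, which bears on each of the following class values: cluster 6 made up 58 of 238 TG and 397 of 734 WT CD4 T cells, and cluster 4 made up 145 of 1020 TG and 363 of 819 WT CD8αβ T cells. The part of this mix in the values below was not tested. Gzmb and Tbx21 were called higher in both classes. Gzmb, which encodes the protease granzyme B, stood at 324 CPM in TG and 69.9 in WT CD4 T cells and at 809 and 317 CPM in CD8αβ T cells. Tbx21, which encodes the effector regulator T-bet, was 88.8 and 34.4 CPM in CD4 T cells and 209 and 60.7 CPM in CD8αβ T cells. Id2, an inhibitor of E proteins, was 1132 and 496 CPM in CD4 T cells. Crtam, an adhesion receptor of cytotoxic cells, was 30.2 and 15.0 CPM in CD8αβ T cells, a log2 ratio of 1.01 that lay just past 2-fold, and the count of higher genes in this class was 2 in place of 3 with TMM, with totals that left out ribosomal protein and mitochondrial genes, and without doublets.

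Lef1 and Id3, which are high in naive T cells, were called lower in both classes. Lef1, a partner of TCF-1 in early T cells, was 241 CPM in TG and 506 in WT CD4 T cells and 144 and 315 CPM in CD8αβ T cells. Id3 was 34.3 and 68.8 CPM in CD4 T cells and 35.1 and 71.4 CPM in CD8αβ T cells. Itgae, which encodes the integrin chain CD103, was 3.77 and 38.8 CPM in CD8αβ T cells, a log2 ratio of −3.36 (−4.13 to −2.67), and Tox was 39.8 and 116 CPM. Zbtb16 and Tle1 were called lower in CD8αβ T cells from 22 and 13 TG UMIs. Without the cells past the CD4 gate of their genotype, 3 genes were called higher and 6 lower in CD8αβ T cells, with Prf1 now called (1.07) and Crtam no longer (0.91), where 5.23% and 2.92% of 10872 genes were called.

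The same list was compared between the proteins inside each genotype, in cells named CD4 T or CD8αβ T. In TG 344 cells with CD4 only stood against 646 with CD8β only, and in WT 837 against 499. Of the list, 4 genes of 43 were higher with CD4 and 4 with CD8β in TG, where 5.05% and 2.66% of 10505 genes were called. In WT 5 of 45 were higher with each, where 3.93% and 2.14% of 10254 genes were called. Genes called on the same side in both genotypes are named as shared below. The share of all genes called in both was not computed, so the overlap is not read as a property of the list.

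Cd40lg, which encodes the helper ligand CD40L, was the shared gene with the widest gap on the CD4 side among those with 100 or more UMIs, at 83.3 and 5.25 CPM in TG and 70.8 and 4.08 in WT. Gata3, which acts before ThPOK in CD4 commitment, was 331 and 121 CPM in TG and 239 and 96.8 in WT. Runx1 was 147 and 72.6 CPM in TG and 127 and 36.7 in WT. On the CD8β side Eomes, a regulator of cytotoxic cells, was 17.7 and 146 CPM in TG and 26.1 and 81.1 in WT, and Crtam was 3.94 and 36.2 CPM in TG and 4.42 and 21 in WT. Prf1, which encodes perforin, was called in TG, at 19.0 and 135 CPM, and not in WT, at 37.8 and 55.4 CPM, and the difference between genotypes was not tested. These genes lay on the same side in both genotypes. Itgae and Tle1, called with CD8β in WT at −1.55 and −1.31, did not: in TG Itgae gave 0.79 (−0.39 to 1.93), and Tle1 gave 1.41 from 9 UMIs, under the minimum.

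**Figure D5:**
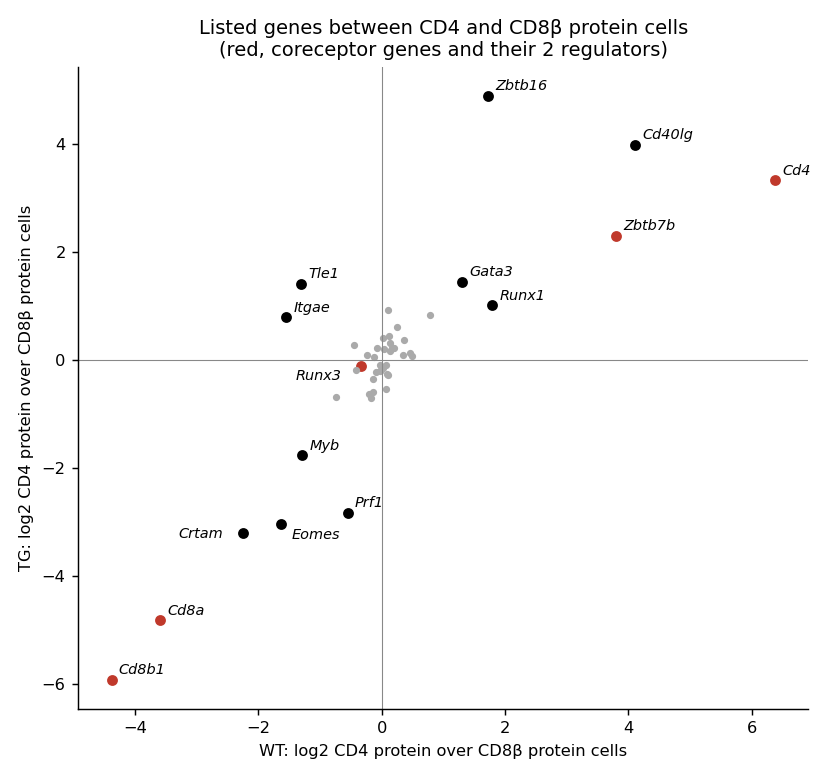
Log2 ratio of CD4 only over CD8β only cells in WT (x axis) and TG (y axis) for the 5 coreceptor genes (red) and the listed network genes (black where called in either genotype, grey otherwise), in cells named CD4 T or CD8αβ T. Cd4, Zbtb7b, Cd40lg, Gata3 and Runx1 are above 0 on both axes, and Cd8a, Cd8b1, Eomes, Crtam and Myb are below 0 on both. Runx3 lies at −0.34 (−0.53 to −0.14) in WT and −0.11 (−0.27 to 0.06) in TG.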

How the data were processed

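CD45+ liver cells were read with BD Rhapsody whole transcriptome and antibody sequencing. The authors aligned reads to mm10, corrected and counted UMIs, and deposited filtered UMI counts per gene and antibody, antibody values on a natural log scale, and a genotype, cluster number and cell type name for every cell. Their rule for keeping cells was not given in the sources used here. The deposited antibody values were recomputed as centred log ratios, with 0 values differing by more than 1e-06. Library files with counts for all called cells of each pool gave identical counts for the 5 genes in all named cells (0 cells differed), and 5379 cells of the TG pool and 16829 of the WT pool had no genotype name.

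Counts were summed per cell type, cluster or antibody gate and genotype, and scaled to 1000000 UMIs of the group. Doublets were called with Scrublet in scanpy 1.11.5 (0.839% of TG and 3.31% of WT cells) and kept, with a repeat without them. Gates came from a 2-component mixture in scikit-learn 1.9.0. Intervals were computed with scipy 1.17.1, numpy 2.4.6 and pandas 2.3.3 in Python 3.11.15, and TMM factors with edgeR 4.0.16 in R 4.3.3. The functions were checked on simulated data. Figures used matplotlib 3.10.9.

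No gene was tested, since 1 library stood for each genotype. The 5 genes, the network list and the comparisons were chosen with earlier results of these data known. Network genes were named when past 2-fold in CD4 T or CD8αβ T cells, with at most 5 in each direction by size and 100 or more UMIs over both profiles. Zbtb16 and Tle1 had fewer UMIs and were named, like the genes of the comparison between proteins, after their values were seen. Values of 1 listed gene are not reported here. For each of the 5 genes the 5 genes with the highest Pearson correlation were also named. Alternatives were other scalings, no doublets, thinning, other gates, the library files, no minimum count, and leaving out cluster 7, NKT cells or cells with B cell transcripts.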

Additional observations from a re-analysis of the deposited data

Results flagged for a closer look

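Summed by class, the Cd4 log2 ratio of TG over WT was 4.16 (3.62–4.76) in the cells named NK and −0.55 in mature B cells. The lower value of mature B cells was not seen inside their clusters, where it was 0.35 (−0.37 to 1.09) in cluster 1 and 0.77 (0.22–1.29) in cluster 17, which held 29 TG and 155 WT cells. Cd8a gave 1.63 in the cells named NK and −1.34 in mature B cells, with −0.58 (−1.18 to 0.02) in cluster 1 and 0.03 (−0.46 to 0.49) in cluster 17. Cd8b1 was higher in TG NKT cells (0.85) and lower in TG macrophages (−2.43, from 3 TG UMIs). With 1 library per genotype these differences between classes were not tested.

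Cells of each pool without a genotype name gave a second reading of Cd4, although their genotype is not known. They were chosen as cells with Ncr1 and Klrb1c and without Cd3e or Cd79a. In the TG pool a Cd4 UMI was found in 39 of 112 named TG cells, 34.8% (26.1–44.4), and in 11 of 144 cells without a name, 7.64% (3.87–13.3), at median Actb counts of 51 and 47 UMIs. In the WT pool it was found in 12 of 445 named WT cells, 2.70% (1.40–4.66), and in 9 of 218 without a name, 4.13% (1.9–7.69). Cells with 2 or more Cd79a UMIs gave 4.24% and 4.34% in the TG pool and 2.65% and 3.84% in the WT pool. Cells with Cd3e and 2 or more Cd8b1 UMIs and without Cd79a gave 30.7% and 9.74% in the TG pool and 11.4% and 8.57% in the WT pool. In the TG pool the NK marker and CD8 marker shares of named TG cells were thus higher than those of the other cells of the same library, beyond counting error. With NK markers, named and other cells held 7.39 and 1.62 Cd4 UMIs per 1000 Actb UMIs in the TG pool. The WT pool gave 1.05 and 0.818. With CD8 markers the values were 6.31 and 3.39 in the TG pool and 5.82 and 3.94 in the WT pool. By level, named CD8 marker cells thus stood above the others in both pools. Median Actb counts of these named cells were 47 in TG and 26 in WT. The median CD4 antibody count differed in the TG pool too, at 7 on named TG cells with the NK markers and 3 on those without a name, and at 8 and 3 on cells with Cd79a.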

How the results depend on the processing

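Of 165 alternative values for 24 results, 127 kept within their interval, 38 moved and 0 reversed a value whose interval left out 0. In CD8αβ T cells, the Cd4 log2 ratio of 1.02 was 0.81 after thinning and 3.82 without cells past the CD4 gate (1.47 with the TG gate for both genotypes, 3.59 with the WT gate), Cd8a was 0.22 with equal weight per cell and 0.27 without cluster 7, Cd8b1 was −0.30 thinned, −0.036 without cluster 7 and −0.31 without cells past the gate, and Zbtb7b was 0.84 with equal weight, 0.81 thinned, 0.95 without cluster 7 and 1.25 without cells past the gate (1.36 with the WT gate, and 0.43 with an interval that held 0 with the TG gate). Cd8b1 in CD4 T cells was 0.44 with equal weight and 0.78 thinned, against −0.03. Cd4 in the cells named NK was 3.1 in cluster 8, 4.85 without doublets, 5.25 below the CD4 gate and 4.77 below the TG gate. These, the 6 alternatives for Cd4 in CD8αα T cells and all values without cells past the CD4 gate were chosen after seeing the data, as was leaving out cluster 21 of the CD4 T cells. Co-detection of Cd4 and Cd8a was 3.43% (TG) and 0.527% (WT) thinned, 3.89% and 0.456% at 2 or more UMIs, 20.9% and 0.872% without cells past the gate, and 11.5% in TG for Cd4 and Cd8b1. Double positive protein was 0.235% and 0.0240% at the B cell percentile and 25.1% and 7.67% at 10 antibody counts. Both of these gates have the limits given with the antibody shares above, which also bear on the next values. For CD4 over CD8β cells, Zbtb7b in TG was 3.32 at the B cell percentile and 1.48 at 10 counts. Runx3 in TG was 0.11 at the percentile, 0.23 at 10 counts and −0.43 thinned, and in WT −0.082 thinned and −0.28 without NKT cells, so its sign depended on the gate, thinning, the totals used and the cells included. The cause was not tested. Counts of network genes between genotypes in CD4 T and CD8αβ T cells stayed within 1.5 times under the alternatives run, and the other network counts had none. No paired analysis was possible because each genotype was 1 library.

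At median depths of 3298 (TG) and 2653.5 (WT), a cell without a UMI of a gene is not a cell without its transcript. Each interval leaves out the spread between mice. The lower peak of the CD4 antibody lay higher in TG, so gates differed by genotype. Whether antibody background or low CD4 protein sets that peak was not tested. Setting TG beside WT always sets one pool beside the other. The name NK covered cells with Cd3e in TG, and values for that name hold for the named cells, not for NK cells as a lineage.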

Other observations

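Across 21 profiles of cell type and genotype with 50 or more cells, log2(CPM + 10) of each gene was correlated with that of 11316 genes. These values are descriptions, since profiles of 1 genotype share a library and neighbouring classes share cells of the same origin. The genes most like Cd4 were Ms4a4d (Pearson's r = 0.83), Sdcbp2 (0.81), Dst (0.80), Zfp365 (0.79) and Nmnat2 (0.79). For Cd8a they were Wdr31 (0.85), Ddc (0.79), Srbd1 (0.79), Msh6 (0.77) and Setd4 (0.77), and for Cd8b1 they were Rfc5 (0.87), Ddias (0.86), 4930579G24Rik (0.82), Fancd2 (0.81) and Fignl1 (0.81). Zbtb7b was most like Aldoa (0.76), Orai1 (0.76), Furin (0.73), Slc41a3 (0.72) and Gpsm3 (0.72). Runx3 had the closest partners, with Dnajc1 (0.97), Prkacb (0.95), Pgm2l1 (0.95), Cetn2 (0.94) and Nabp2 (0.94). Among the 5 genes, Cd8a and Cd8b1 gave 0.62, Cd4 and Zbtb7b 0.03, and Zbtb7b was negative with Runx3 (−0.46), Cd8a (−0.50) and Cd8b1 (−0.60).

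Plasmacytoid dendritic cells carried all 3 coreceptor transcripts. Their Cd8b1 level was 178 CPM in TG and 233 CPM in WT, second to CD8αβ T cells among the WT classes with 50 or more cells, and Cd8a was 92.6 and 142 CPM. Cd4 and Cd8a met in 17.4% of TG and 18.3% of WT pDC (4.35% and 1.83% thinned), against 0.0973% and 0.1505% of B cell cluster 1. CD4 protein was past the gate set on T and NKT cells on 60.9% of TG and 80.8% of WT pDC. These gates were unequal, so the protein shares are not compared between genotypes. Zbtb7b in these cells was 24.9 and 25.7 CPM.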
